A study of Mus musculus with 6 samples.

Results

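Myoc, Angptl7, Apod, Ptgds, Mgp and Cyp1b1 are grouped here as genes of the eye's mesenchyme, and 5 of them encode secreted proteins. Mesenchyme here means the connective tissue of the outflow pathway, sclera, iris, ciliary body and choroid. Which cells of the tissue made the RNA of the 6 genes was not tested. The 6 genes were chosen by gene symbol from the 33924 symbols of 1 table of RPE/choroid RNA, and all 6 were found. The fold changes between young and aged mice in that table were already known. The choice therefore used age differences. The levels described here are means over the same libraries, so they are not independent of the choice. RPE/choroid, the retinal pigment epithelium and the blood vessel layer it rests on, was scraped from the eyecup of C57BL/6J mice after cornea, lens, iris, muscle and neural retina had been cut away. There were 3 libraries from young mice, labelled 1 to 2 months, and 3 from aged mice, labelled 20 to 24 months in the titles and 22 to 24 months in the time field. All mice were untreated and labelled male, while the study's methods name both sexes and a somewhat higher age for the young group, and each library came from a pair of eyes.

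The study sequenced this tissue to ask whether its loss of histones with age also shows in RNA, and compared all transcripts between the ages. The comparison of young with aged mice in the deposited table is the authors' own, and its fold changes and p-values are not given here. What remains is 1 value per gene, the mean normalized count over the 6 libraries, in which young and aged mice are weighted alike. No value per library was analysed here, so no SD, interval or test accompanies any level. The study gives an average depth over the libraries, but the depth of each is unknown. How far 2 genes would have to lie apart to exceed the spread between mice cannot be stated. Because the tissue was sequenced in bulk, few cells with much of an RNA and many cells with little of it cannot be told apart.

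The connective tissue of the eye comes largely from the neural crest and mesoderm, and its fibroblasts, trabecular meshwork cells and scleral cells shape the route by which aqueous humor leaves the eye. Myoc encodes myocilin, a secreted glycoprotein with an olfactomedin domain whose mutant forms cause open-angle glaucoma. Angptl7 encodes a secreted angiopoietin-like protein of corneal stroma, sclera and trabecular meshwork, and Mgp encodes matrix Gla protein, a vitamin K-dependent inhibitor of soft tissue calcification. Apod and Ptgds encode lipocalins, small carriers of lipids: apolipoprotein D binds arachidonic acid and steroids, and lipocalin-type prostaglandin D synthase both makes prostaglandin D2 and carries retinoids. Cyp1b1 encodes a cytochrome P450 enzyme that oxidizes estradiol, retinoids and foreign aromatic compounds and is mutated in congenital glaucoma. It is bound to the membrane of the endoplasmic reticulum and not secreted, unlike the products of the other 5 genes.

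The stretches of DNA before the start sites show how differently the genes are built where their transcription begins. Promoters from RefSeq (GRCm38.p6, 250 bases before to 50 after the start) were matched for 5 of the 6 genes, Mgp being the exception. The last 60 bases before each start are given 5′ to 3′ on the gene's own strand, with capitals for the letters TATAAA, in the order of RNA level. They lie at chr2:25469750-25469809 (minus strand), chr1:162639090-162639149 (plus strand), chr16:31314809-31314868 (minus strand), chr4:148500463-148500522 (minus strand) and chr17:79715062-79715121 (minus strand). The Ptgds bases lie inside the span of the gene in the annotation used for lengths (25466709 to 25470046). Positions in the Ptgds promoter are therefore counted from the RefSeq start alone.
Ptgds: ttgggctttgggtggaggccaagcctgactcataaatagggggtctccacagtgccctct
Myoc: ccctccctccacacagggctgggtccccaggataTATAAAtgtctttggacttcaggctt
Apod: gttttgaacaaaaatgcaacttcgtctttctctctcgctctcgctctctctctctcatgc
Angptl7: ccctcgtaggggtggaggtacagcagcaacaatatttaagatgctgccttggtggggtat
Cyp1b1: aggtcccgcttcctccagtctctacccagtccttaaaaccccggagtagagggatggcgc

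Myoc was the only one of the 5 promoters with the letters TATAAA, which began 26 bases before the start. A TATAAA on the gene's strand beginning 21 to 40 bases before the start is held by 1.99% of the 32851 promoters of the table, and TATAAA anywhere in the window on either strand by 13.6%. Cyp1b1 was the promoter of the 5 with the most CpG dinucleotides, 16 in 300 bases, against 2 in Myoc, 2 in Ptgds, 4 in Angptl7 and 4 in Apod and a median of 7 over all promoters. The ratio of observed to expected CpG was 0.642 in Cyp1b1, 0.384 in Apod, equal to the median of all promoters to 3 digits, 0.203 in Angptl7, 0.114 in Myoc and 0.0804 in Ptgds. Base composition ran from 37.3% G and C in Apod to 58.3% in Cyp1b1, around a median of 52.7%.

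Cyp1b1 is a classical target of the aryl hydrocarbon receptor, a transcription factor that binds with its partner Arnt to DNA around the letters GCGTG. Its promoter at chr17:79715012-79715311 (minus strand, GRCm38.p6) is shown whole for this reason, with GCGTG, read on either strand, in capitals.
Cyp1b1: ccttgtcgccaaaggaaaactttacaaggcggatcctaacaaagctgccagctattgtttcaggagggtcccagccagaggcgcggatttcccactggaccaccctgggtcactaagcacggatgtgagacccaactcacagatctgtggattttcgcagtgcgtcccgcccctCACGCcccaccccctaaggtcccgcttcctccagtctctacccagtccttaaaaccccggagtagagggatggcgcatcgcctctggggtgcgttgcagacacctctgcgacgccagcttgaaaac

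The letters occurred once, on the opposite strand, with the first base 76 bases before the start, and 32.4% of all promoters hold them. They were in none of the other 4 promoters. A GC box (GGGCGG on either strand), present in 35.7% of all promoters, was found once, in Cyp1b1, beginning 84 bases before the start. Ptgds held the letters TGANTCA, the AP-1 motif present in 7.81% of promoters, 35 bases before the start. The half-site AGAACA of steroid receptors, held by 19.0% of promoters, was in 0 of the 5 windows. The E-box letters CANNTG, present in 72.3% of promoters, were in every window but that of Cyp1b1. Such matches describe letters, and no binding was measured here.

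Ptgds was the most abundant of the 6 genes. Its mean was 68366 normalized counts, which put it at place 13 among the 26681 symbols with a mean above 0 and made up 0.356% of the summed means of the whole table. Ptgds alone held 66.4% of the summed mean of the 6 genes, and the 6 together held 0.536% of the table's sum. The gene lies on chromosome 2 at 25466709 to 25470046 on the minus strand (GRCm38), and its longest annotated transcript has 5 exons and 1327 bases. Long transcripts collect more reads than short ones at the same number of molecules, so levels are compared between genes after division by the length of the longest transcript. The study's methods name TPM, a unit already divided by length, as the step before the normalized counts, so whether the deposited mean still grows with length is not settled by them. In the table, the median mean of protein-coding genes with a mean of at least 10 was 217 in the tenth with the shortest transcripts and 1201 in the tenth with the longest. Levels per kb rest on the mean not having been divided before, and values without division are given for the main orders of the 6 genes. Ptgds then stood at 51519 normalized counts per kb, the 5th highest of the 22827 symbols with a mean above 0 and a length.

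Mgp, Myoc and Apod followed in the top 2% of genes. Mgp, on chromosome 6 at 136872435 to 136875823, had a mean of 10866 normalized counts and, with a longest transcript of 715 bases, 15198 per kb. Myoc, on chromosome 1 at 162639155 to 162649693, had the higher mean of 12040 normalized counts but the lower level per kb, 5805, because its transcript of 2074 bases is longer. Apod, on chromosome 16 at 31296192 to 31314808, had a mean of 7127 normalized counts and 3436 per kb. Of the symbols with a mean above 0, 99.5% lay below Mgp, 99.6% below Myoc and 98.9% below Apod.

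Angptl7 and Cyp1b1 were lower. Angptl7, on chromosome 4 at 148495183 to 148500460, had a mean of 3659 normalized counts and 1696 per kb, above 96.7% of symbols by its mean. Cyp1b1, on chromosome 17 at 79701537 to 79715061, had a mean of 902 normalized counts and 176 per kb. It stood above 81.0% of all symbols with a mean above 0 but above only 72.0% of the 16444 protein-coding genes, whose median mean was 333. Per kb it lay 9.64 times below Angptl7, and 4.06 times below it without division by length.

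The steps between neighbours in that order, per kb, were 3.39-fold from Ptgds to Mgp, 2.62-fold from Mgp to Myoc, 1.69-fold from Myoc to Apod and 2.03-fold from Apod to Angptl7. The narrowest step depended on the length used. Divided by the coding length alone, which is 567 bases in Apod and 1470 in Myoc, Apod had 12569 per kb and Myoc 8190, so these 2 genes changed places. The order of the other 4 was the same with each of the 4 lengths tried.

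**Figure D1:**
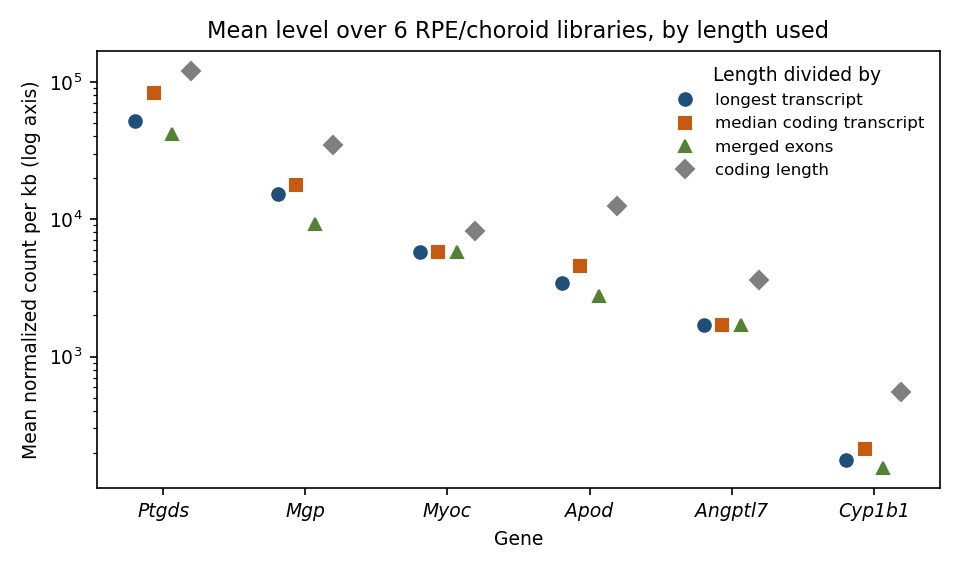
Mean normalized count per kb over 6 libraries (log axis) of the 6 genes, with 1 point for each of 4 lengths used as divisor; no error bars can be drawn, as there is 1 value per gene. Ptgds is highest (51519 per kb of its longest transcript) and Cyp1b1 lowest (176) under every length, while Apod passes Myoc when the coding length is used.

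**Figure D2:**
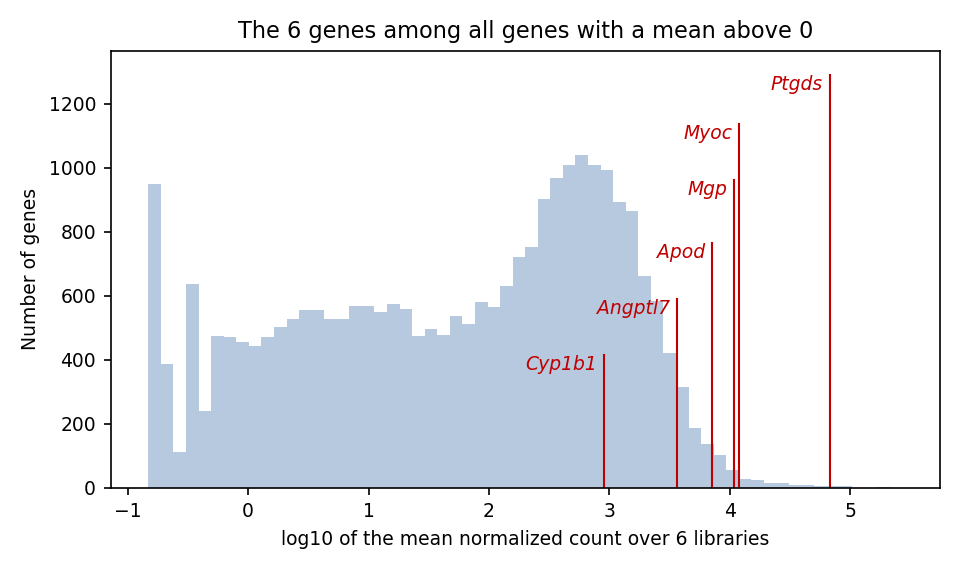
Number of genes by the log10 of their mean normalized count over 6 libraries, for the 26681 symbols with a mean above 0, with a vertical line at the mean of each of the 6 genes (line heights carry no value). Ptgds (68366), Myoc (12040), Mgp (10866) and Apod (7127) stand in the upper tail, and Cyp1b1 (902) within the main body.

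How far reads of a gene can be mistaken for those of another gene bears on these levels, because the authors' tool divides shared reads by estimation. Each annotated transcript was cut into words of 31 bases. In Ptgds, Mgp and Cyp1b1, 100% of the words occurred in no other gene, in Angptl7 98.6%, in Apod 98.3% and in Myoc 96.8%. All 65 shared words of Myoc lay in Myocos, a gene annotated on the opposite strand that overlaps the 3′ part of Myoc, from 162647193 to 162658219. Myocos has no value in the deposited data, so whether the authors' tool divided any reads between it and Myoc is unknown. Angptl7 lies inside Mtor, the gene of the growth-controlling mTOR kinase, which runs on the opposite strand from 148448611 to 148557683 and had a mean of 2364 normalized counts. The libraries kept the strand, but whether the quantification used it is not given in the sources used here, so reads of such pairs could be mixed where they overlap.

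Among the listed genes of its family, Myoc was the most abundant. The 10 genes of the list are proteins with an olfactomedin domain, all were at or above a mean of 10 normalized counts (a minimum reached by 53.0% of the table's symbols), and Myoc had 5805 per kb against a median of 212 for the other 9. Next came Olfml1 with 881 per kb, Olfml2a with 543 and Olfml3 with 463, secreted matrix proteins whose means were 1485, 3030 and 2531 normalized counts. Olfm1, a gene of neurons, had 393 per kb, Olfml2b had 212, and Olfm3 had 20.2. Myoc thus lay 6.59-fold above Olfml1 per kb, or 3.86-fold with coding lengths.

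Angptl7 was the highest of the 9 listed angiopoietins and angiopoietin-like genes in the table per kb, by a narrow margin. Its 1696 per kb stood 1.53-fold above Angptl2, a secreted factor of inflamed and fatty tissue, with 1105, and 1.91-fold above Angpt1, the ligand that activates the endothelial receptor Tek, with 890. Without division by length the order turned, with means of 3934 for Angptl2, 3792 for Angpt1 and 3659 for Angptl7 normalized counts, so no order among these 3 is claimed. The other 6 were far lower, all between 18.8 and 127 per kb. Angpt2, the vascular antagonist of Angpt1, had 90.1 per kb and the lipoprotein lipase inhibitor Angptl4 had 104.

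The lipocalins split into 2 abundant genes and a rest far below them. Ptgds with 51519 per kb and Apod with 3436 stood above the 9 other lipocalins of the list that were in the table, whose median was 13.5 per kb. The highest of these was Orm1, an acute-phase plasma protein, with a mean of 82.1 normalized counts and 106 per kb, 32.4-fold below Apod, or 95.1-fold with coding lengths and 86.8-fold without division by length. Lcn2, the iron-scavenging lipocalin of inflammation, had a mean of 25.8 normalized counts, Rbp4, the plasma carrier of retinol, 13.9, and Ambp 0.849. Per kb, Ptgds exceeded Apod 15.0-fold, or 9.59-fold with coding lengths.

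Ptgds was also far above the other listed genes of the prostaglandin pathway. The pathway starts with release of arachidonic acid by Pla2g4a (335 per kb), goes on with the cyclooxygenases Ptgs1 (221 per kb) and Ptgs2 (63.2), and ends in synthases for single products. Hpgds, the other prostaglandin D synthase, found in mast cells and other blood-derived cells, had 297 per kb, 173-fold below Ptgds, or 59.1-fold without division by length. The prostacyclin synthase Ptgis had 804 per kb, the prostaglandin E synthase Ptges had 507 and the thromboxane synthase Tbxas1 had 73.2. Ptgdr, a receptor for prostaglandin D2, was the lowest of the 12 genes in the table with 18.2 per kb and a mean of 58.0 normalized counts.

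Among the listed proteins whose glutamate residues are carboxylated with vitamin K, Mgp was highest. Its 15198 per kb lay 4.05-fold (without division by length 1.14-fold) above Gas6, the ligand of the Tyro3, Axl and Mertk receptors, with 3754, and 16.3-fold (without division 3.52-fold) above Pros1, a second ligand of these receptors, with 934. The genes of bone and cartilage Gla proteins were near 0, with means of 0.353 normalized counts for Bglap, 1.11 for Bglap2 and 4.70 for Ucma. The enzymes the modification needs were present: Ggcx, the carboxylase, had a mean of 1231 normalized counts (420 per kb), Vkorc1, which recycles vitamin K, one of 289 (386 per kb), and its relative Vkorc1l1 481.

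Cyp1b1 was the only gene of its cytochrome family above the minimum mean of 10 normalized counts. Cyp1a1 had a mean of 4.70 and Cyp1a2 was listed at 0, against 902 for Cyp1b1. Por, the reductase that passes electrons to these enzymes, had 604 per kb. Genes of the receptor that controls the family lay on both sides of Cyp1b1 (176 per kb): Ahr had 114 per kb, its partner Arnt 280, the related Arnt2 41.1, its repressor Ahrr 34.7 and its target Tiparp 273. Cyp1b1 stood above Ahr and below Arnt, and the second of these relations turned with coding lengths (1.09-fold above Arnt). Aldh3a1, another aromatic-compound response gene that is also a major protein of the cornea, was the highest of the list with 2126 per kb.

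**Figure D3:**
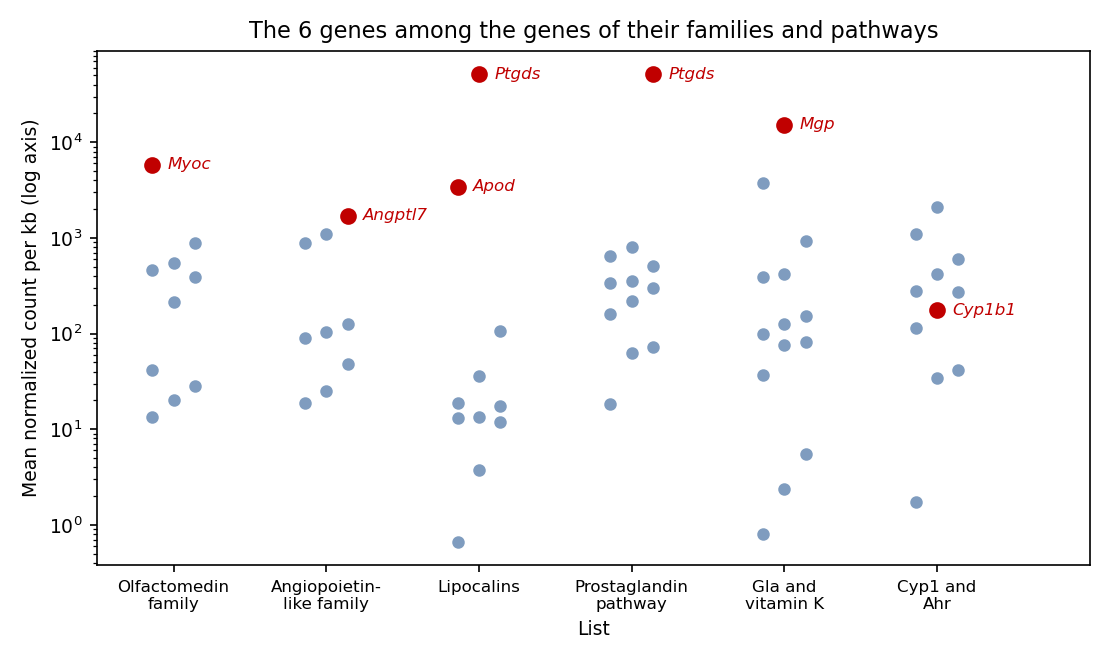
Mean normalized count per kb of the longest transcript (log axis) for each gene in the table on 6 lists of families and pathways, with the 6 genes in red and all others in blue; Cyp1a2, listed at 0, cannot be drawn on a log axis. Ptgds, Myoc and Mgp top their lists, Angptl7 does so per kb but not without division by length, and Cyp1b1 (176 per kb) lies inside its list.

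Glaucoma-linked genes as a group were measured at moderate levels. All 20 on the list had a mean of at least 100 normalized counts. Most protein-coding genes with a mean above 0 reach 100 too, as their median mean was 333. The 17 that are not among the 6 genes had a median of 433 per kb, against 103 over all protein-coding genes with a mean above 0. Sparc, a collagen-binding matrix protein that affects outflow, was highest with 10908 per kb and Six6, a retinal transcription factor, lowest with 43.7. Optn and Tbk1, autophagy genes mutated in normal-tension glaucoma, had 963 and 395 per kb. Foxc1, a transcription factor of the anterior eye mesenchyme, had 287, and Loxl1, a crosslinking enzyme of elastic fibres, had 700. Ltbp2, mutated in congenital glaucoma as Cyp1b1 is, had 385 per kb.

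Markers of cell types were set beside the 6 genes to describe the tissue they were measured in. The RPE markers had a median of 7559 per kb, from 33.6 for Best1 to 83745 for Ttr, the thyroxine carrier transthyretin, and Rpe65, the retinoid isomerase, named here after its value was seen, had 23481. Ptgds stood above 108 of the 109 marker genes, with Ttr alone higher, and 2.19-fold above Rpe65, or 4.41-fold with coding lengths. Mgp stood above 103 of them per kb, Myoc above 92, Apod above 85, Angptl7 above 74 and Cyp1b1 above 27. Mgp had 0.647 of the level of Rpe65 per kb, a relation that turned with coding lengths (1.27) and was 0.248 without division by length. Without division by length Ptgds stood above 106 of the markers, Myoc above 87, Mgp above 86, Apod above 80, Angptl7 above 67 and Cyp1b1 above 35.

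The tissue held RNA of many cell types besides RPE, including some that the dissection was meant to remove. Fibroblast markers had a median of 2304 per kb, from 220 for Dpt to 12072 for Col1a2, a chain of type I collagen. Markers of sclera and corneal stroma had a median of 317, and the keratins of corneal epithelium a median of 833, up to 1643 for Krt15. Skeletal muscle markers had a median of 8615 per kb, rod photoreceptor markers 1596 and lens markers 592. The lens markers differed widely among themselves, from 11.2 per kb for Mip to 1559 for Cryaa. Markers of meninges had a median of 326, those of ciliary body 69.6 and those of fat 17.6. Melanocyte markers had a median of 2605 per kb, macrophage markers 2380, pericyte and smooth muscle markers 1004 and endothelial markers 514. Per kb, Angptl7, Apod and Myoc all lay within the range of the fibroblast markers, Ptgds above it and Cyp1b1 (176) below it. Without division by length Cyp1b1 (902 normalized counts) stood above Dpt (379). Angptl7, Apod and Myoc also lay within the ranges per kb of the RPE, melanocyte, macrophage, rod and skeletal muscle markers. Mgp lay 1.26-fold above Col1a2 per kb but at 0.168 of its level without division by length. As every gene has 1 value, whether Myoc, Angptl7 or the others follow any of these lists from library to library was not tested.

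**Figure D4:**
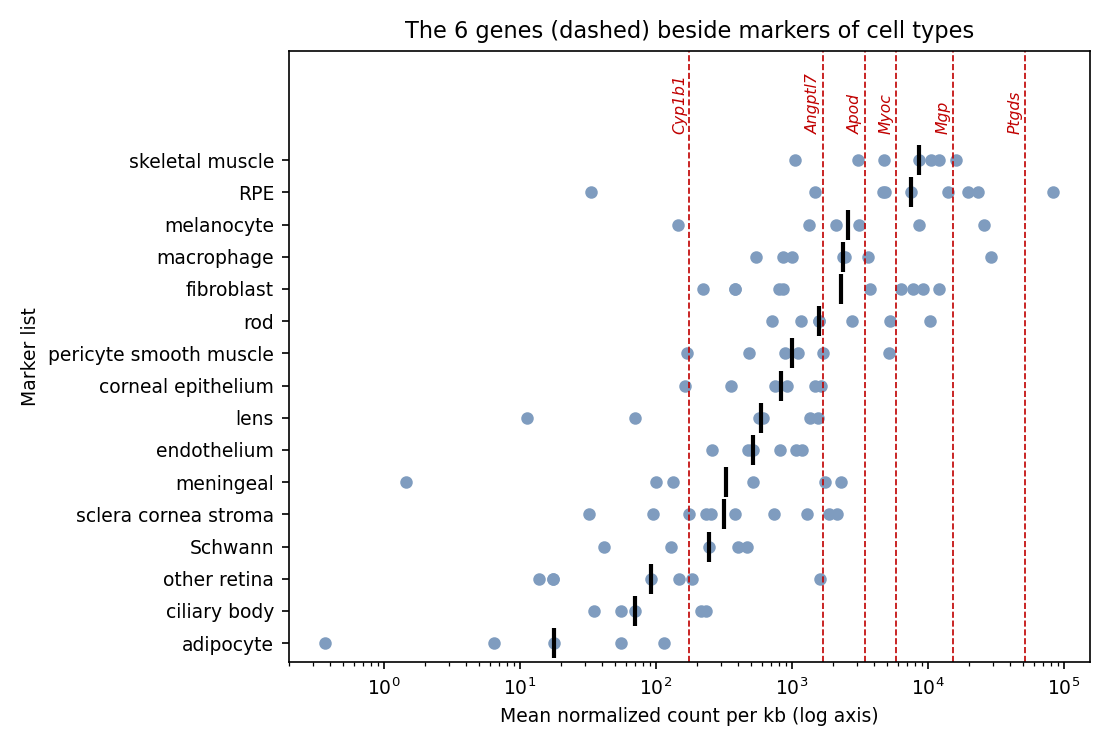
Mean normalized count per kb of the longest transcript (log axis) for each gene of 16 marker lists (blue points), with the list median as a black bar and the 6 genes as dashed red lines; lists are sorted by median. Per kb the skeletal muscle list has the highest median (8615) and RPE the next (7559), an order that turns without division by length (12939 and 25214 normalized counts), and 108 of 109 markers lie left of Ptgds.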

How the data were processed

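Stranded total RNA libraries, depleted of ribosomal RNA, were made from RPE/choroid of C57BL/6J mice, 3 young and 3 aged. The authors trimmed paired reads with BBDuk, mapped them with STAR to Ensembl transcripts of GRCm38, used Sailfish to quantify transcripts as TPM, turned these into counts normalized to the total and tested young against aged with DESeq2. The authors deposited 1 table with a mean normalized signal per gene over the 6 libraries (baseMean), and whether a division by length had gone before is not settled by the methods. The table's other columns hold the authors' own comparison (log2 fold change, standard error, Wald statistic, p-value and adjusted p-value) and were not used, so no test between ages was made. Columns that name a sample numbered 0, and depth per library is unknown beyond the average that the study gives.

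Lengths, positions and classes came from GENCODE M21 (GRCm38), in which 28514 of 33924 symbols (84.1%) named 1 gene. Levels per kb are the mean divided by the longest annotated transcript. Listed genes were counted at a mean of at least 10. The members and lists were chosen with earlier results of these data known. Genes of the 7 family and pathway lists could be named, and of the 16 marker lists the highest and lowest gene. Some listed genes are not reported here. Motifs and GC content were read from RefSeq promoters. Calculations (Python 3.11.15, pandas 2.3.3, numpy 2.4.6) were tested on simulated data.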

Additional observations from a re-analysis of the deposited data

How the results depend on the processing

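No paired analysis was possible because each gene has 1 mean over all libraries. For the same reason the comparison of young with aged mice, with its replicate block, its fits leaving out a library, its pseudocounts and its filter on low values, was not run. The order of the 6 genes per kb was the same when divided by the median coding transcript or the merged exons. With the coding length 2 genes took another place (Apod above Myoc), and without division by length 2 genes did (Myoc above Mgp). The coding length moved 5 of the 6 levels by more than 1.5-fold, as it leaves out untranslated parts of unequal size. The median coding transcript moved Ptgds from 51519 to 82369 per kb, and merged exons moved Mgp from 15198 to 9154. Among 12 ratios to other genes, recomputed as checks chosen after the data were seen, 2 turned with coding lengths (Cyp1b1 to Arnt became 1.09 and Mgp to Rpe65 became 1.27) and 2 without division by length (Angptl7 to Angptl2 became 0.930 and Mgp to Col1a2 became 0.168). The share of genes below Cyp1b1, 81.0%, was between 71.5% and 72.0% when genes were ranked per kb, among protein-coding genes or among those with a mean of at least 10, and 62.7% when ranked per kb among protein-coding genes, and the shares of the other 5 genes moved by under 5 percentage points. Of 192 listed genes in the table, 189 reached a mean of 1, 182 a mean of 10 and 161 a mean of 100. Over all symbols, 53.0% reached a mean of 10, and the shares at 1 and 100 are not given here.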
